A study of Mus musculus with 2 samples.

Results

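The genes Fasn, Acaca, Acly, Acss2, Aacs, Elovl6, Scd2, Fads1, Fads2 and Srebf1 belong to fatty acid synthesis and desaturation (10 of the 17219 genes in the authors' deposited table, matched by gene symbol). They were followed in mouse intestinal organoid libraries of a Fabp4 knockout, and in a further comparison described below. Fabp4 encodes a small carrier of fatty acids, studied mostly in fat cells and macrophages. The F4KO genotype carried floxed Fabp4 together with a Cre transgene driven by villin, which acts in intestinal epithelium; the WT genotype carried floxed Fabp4 alone. The labels describe 1 library of each genotype, from crypts grown in Matrigel as organoids until day 6 of culture; its genotype label calls F4KO a knockdown, where its title and the design text say knockout. The table holds a further comparison whose headers name libraries F4KOEpi and WTEpi. No label used here describes those libraries, so they are called Epi here. Their genotypes are taken from the header names alone, with no claim about their cells, age or number of animals.

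De novo lipogenesis turns citrate and acetate into acetyl-CoA, commits it as malonyl-CoA and builds palmitate on fatty acid synthase. Elongases and desaturases then lengthen the chain and add double bonds, and a separate pair of desaturases makes highly unsaturated fatty acids from dietary precursors. Most of these genes are known targets of the SREBP transcription factors, which are released from the endoplasmic reticulum when sterols are low. LXR, the oxysterol receptor, drives Srebf1. In the intestine these activities are known from crypt cells and from enterocytes, which also absorb fat from the diet.

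With 1 library per genotype, no difference below has a replicate check, and no test of genotype was possible. The files give, for each gene, a log2 fold change (F4KO over WT, from the order of names in the headers), a p-value and a false discovery rate (FDR), all made by the authors from a pair of libraries. The FDR therefore compares libraries and not genotypes. Whole read numbers were recovered from the p-values where a pair of numbers fitted. Total depth is unknown, but F4KO held 0.813 times as many reads as WT in Epi and 0.992 times as many in organoids. Read ratios carry exact 95% intervals (Clopper-Pearson), scaled by these totals, which cover counting error only. A gene counted as tested unless its p-value matched a pair of fewer than 20 reads in all. Such a match can be accidental: organoid Tkt matched 10 F4KO and 7 WT reads, a ratio of 1.44, beside a deposited fold of 1.01. Tested is therefore not a strict cut at 20 reads. A gene was called when its deposited fold change reached 1.5-fold. By the headers, the comparisons name separate libraries and share no control.

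The targeted gene checked nothing here. Fabp4 (gene ID 11770, chromosome 3, 10204342 to 10208616, GRCm38.p6) had 4 reads in F4KO and 1 read in WT in Epi, and 0 reads in F4KO and 1 in WT in organoids, too few reads for a difference to be detectable. Gene coordinates below come from the same RefSeq annotation.

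Promoter sequences are shown for the 3 members with the highest Epi fold changes among those with an entry in the promoter table, and for Acss2, 1 of 2 members (with Srebf1) that held both marked motifs in a single window. Each is the 250 bases before a start listed in the promoter table (RefSeq, GRCm38.p6); for Fasn that start lies inside the annotated gene, and the other windows adjoin the gene's annotated start. They run 5′ to 3′ on the strand of the gene, with CCAAT (the NF-Y box) and GGGCGG (the Sp1 box) in capitals on either strand.
Fasn, chr11:120824548-120824797, minus strand: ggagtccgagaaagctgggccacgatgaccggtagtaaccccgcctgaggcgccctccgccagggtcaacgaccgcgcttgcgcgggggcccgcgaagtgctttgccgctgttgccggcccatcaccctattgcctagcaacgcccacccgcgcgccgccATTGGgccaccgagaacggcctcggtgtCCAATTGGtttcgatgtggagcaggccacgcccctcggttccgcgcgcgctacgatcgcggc
Aacs, chr5:125475623-125475872, plus strand: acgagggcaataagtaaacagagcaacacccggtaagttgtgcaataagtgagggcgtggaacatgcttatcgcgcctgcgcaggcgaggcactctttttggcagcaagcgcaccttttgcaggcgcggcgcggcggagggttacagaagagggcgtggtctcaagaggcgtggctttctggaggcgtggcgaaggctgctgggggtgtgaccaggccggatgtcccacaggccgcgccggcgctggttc
Fads2, chr19:10101504-10101753, minus strand: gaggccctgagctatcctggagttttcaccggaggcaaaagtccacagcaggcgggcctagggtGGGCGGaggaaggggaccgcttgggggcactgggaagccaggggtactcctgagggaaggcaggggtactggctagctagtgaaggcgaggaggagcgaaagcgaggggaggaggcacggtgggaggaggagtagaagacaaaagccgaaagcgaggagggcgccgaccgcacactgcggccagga
Acss2, chr2:155517793-155518042, plus strand: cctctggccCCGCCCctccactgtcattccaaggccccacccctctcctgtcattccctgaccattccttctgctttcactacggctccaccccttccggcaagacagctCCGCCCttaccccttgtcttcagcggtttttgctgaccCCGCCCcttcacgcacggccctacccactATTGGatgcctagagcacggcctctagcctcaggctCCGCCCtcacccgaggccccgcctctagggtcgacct
The Fasn window held 3 CCAAT matches, of which a forward and a reverse match overlap. The Acss2 window held 1 CCAAT and 4 GGGCGG matches, the Fads2 window 1 GGGCGG match and the Aacs window neither. Of the 10 members 8 had an entry, with 10 windows in all, 3 of them from Srebf1. CCAAT lay in 4 of these 10 windows, against 33.8% of all 32851 promoter windows of this length, and GGGCGG in 5 of 10, against 32.7%. The general E-box CANNTG was found in 4 of 10 windows, against 66.2% of all. Counted by gene, CCAAT was found for 3 of 8 members, GGGCGG for 4 and CANNTG for 3. A sterol response element of the form TCACNCCAC was found in 0 of 10 windows and in 1.05% of all windows, CACGTG in 0 of 10 against 6.02%, and the LXR element, a pair of AGGTCA with NNNN between them, in 0 of 10 against 0.0152%. These matches describe letters in a short window, not binding.

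All 10 genes were higher in the F4KO Epi library, from 1.56-fold (Srebf1) to 8.43-fold (Scd2) by the authors' deposited table, while in organoids their fold changes ran from 0.933 (Elovl6) to 1.18 (Srebf1). By the 1.5-fold rule 10 of 10 members were higher in Epi, where 35.1% of 12406 tested genes were higher by that much and 4.69% were lower. In organoids 0 of 10 passed in either direction, where 2.56% of 12241 tested genes were higher and 4.91% lower. Epi folds were wide for genes in general: the median deposited log2 fold change of all tested genes was 0.35, with quartiles of 0.00 and 0.81, against -0.01 with quartiles of -0.19 and 0.12 in organoids. The members' median was 1.50 in Epi and 0.07 in organoids. Taking off the median of all tested genes left every member above 0 in Epi and 7 of 10 past 1.5-fold, where 20.3% of tested genes were higher by that much. At 2-fold without this step 6 members were higher, against 18.4% of tested genes. After the median was taken off, the 3 that no longer passed were Acss2, Elovl6 and Srebf1.

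**Figure D1:**
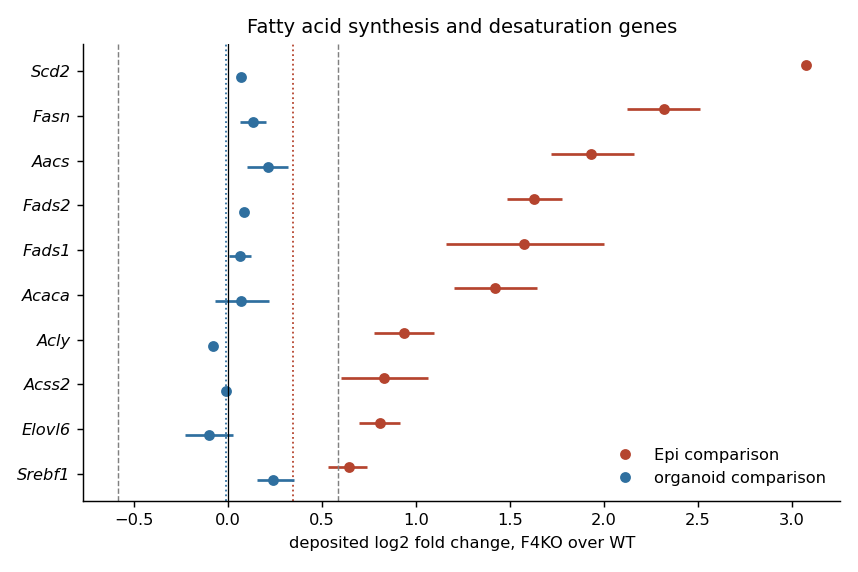
Deposited log2 fold change of each member (x axis, F4KO over WT) in Epi (red) and in organoids (blue). Bars are exact 95% counting intervals of the read ratio where a single read pair was recovered, dashed lines mark 1.5-fold and dotted lines the median of all tested genes; every red point lies right of 0.58 on the log2 scale and every blue point between -0.10 and 0.24.

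Of the enzymes that build palmitate, Fasn had the second highest Epi fold of the 10 genes and Acaca one below the members' median. Fasn (gene ID 14104, chromosome 11, 120805958 to 120825166), which encodes fatty acid synthase, gave 1101 F4KO Epi reads against 272 WT reads. The F4KO read ratio after scaling was 4.98, with an interval from 4.36 to 5.71, and the log2 fold change by the authors' deposited table was 2.32 with an FDR of 2.6e-157. Only 0.983% of tested genes had a higher Epi fold. Acaca (gene ID 107476, chromosome 11, 84129635 to 84401651), the acetyl-CoA carboxylase that makes malonyl-CoA, gave 544 F4KO reads against 250 WT reads, for a ratio of 2.68 with an interval from 2.30 to 3.12. Its deposited log2 fold change by the authors' deposited table was 1.42 with an FDR of 6.26e-40. Both ratios were above 2.6, though the interval of Acaca reached down to 2.30. Fasn had the higher ratio, and the intervals do not overlap. In organoids the gene totals were nearly level: Fasn gave 3522 F4KO reads against 3240 WT reads, its ratio having an interval from 1.04 to 1.15, and Acaca 807 in F4KO against 773 in WT (its ratio's interval ran from 0.952 to 1.16).

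Genes that supply the carbon differed by less in Epi, apart from Aacs. Acly (gene ID 104112, chromosome 11, 100476352 to 100528000), ATP citrate lyase, which cleaves citrate into cytosolic acetyl-CoA, gave 818 F4KO reads against 526 WT reads, for a ratio of 1.91 with an interval from 1.71 to 2.14. Acss2 (gene ID 60525, chromosome 2, 155518043 to 155562743), which makes acetyl-CoA from acetate, gave 385 F4KO reads against 266 WT reads, for a ratio of 1.78 with an interval from 1.52 to 2.09. Aacs (gene ID 78894, chromosome 5, 125475873 to 125517405), acetoacetyl-CoA synthetase, which feeds ketone bodies into lipid synthesis, gave 691 F4KO reads against 222 WT reads, for a ratio of 3.83 with an interval from 3.29 to 4.47. The interval of Aacs lies above those of Acly and Acss2, which overlap each other. In organoids the authors' deposited table gave log2 fold changes of -0.08 for Acly and -0.01 for Acss2, with FDRs of 0.0674 and 0.909. Organoid Aacs gave 1428 F4KO reads against 1243 WT reads, the ratio having an interval from 1.07 to 1.251, and a deposited log2 fold change of 0.21 with an FDR of 0.00179 by the authors' deposited table.

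Scd2 had the highest fold of the 10 genes in Epi. It encodes a stearoyl-CoA desaturase, which makes monounsaturated fatty acids (gene ID 20250, chromosome 19, 44293676 to 44306864). Its deposited log2 fold change was 3.08 by the authors' deposited table, whose antilog is the ratio of 1965 to 233 whole steps of the authors' level in F4KO and WT, up to a common factor, and its FDR is listed as 0. No read pair could be recovered from a p-value of 0, but at this ratio it needs at least 1597 reads in F4KO and 233 in WT. Just 0.306% of tested genes had a higher Epi fold. In organoids the same gene gave a log2 fold change of 0.07 with an FDR of 6.48e-07 by the authors' deposited table, an example of a small difference with many reads: the fitting pairs put its WT reads between 19088 and 26932. Scd1, the paralog most studied in liver and not a member, gave 27 F4KO Epi reads against 29 WT reads, its ratio having an interval from 0.652 to 2.005, and a deposited log2 fold change of 0.27 in organoids by the authors' deposited table.

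The neighbouring desaturase genes Fads2 and Fads1, which act in turn in the synthesis of arachidonic and related acids, had similar folds in Epi. Fads2 (gene ID 56473, chromosome 19, 10062765 to 10101503) gave 1317 F4KO reads against 523 WT reads, for a ratio of 3.10 with an interval from 2.80 to 3.43. Fads1 (gene ID 76267, chromosome 19, 10182877 to 10196874) gave 167 F4KO reads against 69 WT reads, for a ratio of 2.98 with an interval from 2.24 to 4.001. These intervals overlap, that of Fads1 being the wider because of its few reads. In organoids both were close to level, with log2 fold changes of 0.09 and 0.06 and FDRs of 0.022 and 0.139 for Fads2 and Fads1 by the authors' deposited table.

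Elovl6 and Srebf1 had many reads and small folds in Epi. Elovl6 (gene ID 170439, chromosome 3, 129532386 to 129638495), the elongase that turns palmitate into stearate, gave 1719 F4KO reads against 1209 WT reads, for a ratio of 1.75 with an interval from 1.62 to 1.88. Srebf1 (gene ID 20787, chromosome 11, 60199084 to 60224186), which encodes the SREBP-1 transcription factors, gave 1703 F4KO reads against 1346 WT reads, for a ratio of 1.56 with an interval from 1.45 to 1.67. It was the lowest of the 10 folds in Epi, and 31.9% of tested genes had a higher one. In organoids Srebf1 had the highest fold of the 10 genes, with 1793 reads in F4KO and 1515 in WT and an interval of the ratio from 1.11 to 1.28, whereas Elovl6 had 979 in F4KO against 1057 in WT (its ratio's interval ran from 0.855 to 1.02). The deposited FDR was at 0.001 or less for 10 members in Epi, where 40% of tested genes were higher at that limit (the largest of the 10 FDRs was 1.68e-12, for Acss2), and for 2 members in organoids, Scd2 and Srebf1, where 3.98% were higher, by the authors' deposited table.

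**Figure D2:**
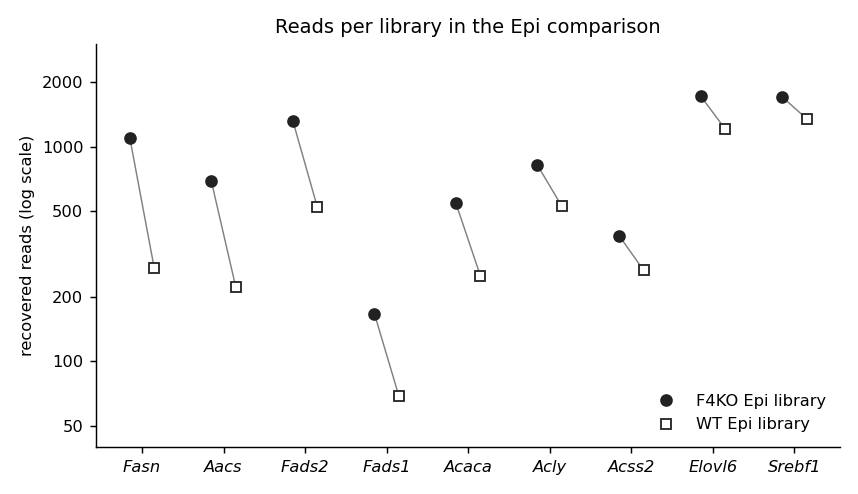
Recovered reads (y axis, log scale) of 9 members in the F4KO Epi library (filled circles) and the WT Epi library (open squares), not scaled for the lower read total of F4KO. Every member lies higher in F4KO, with the steepest line for Fasn (1101 reads in F4KO and 272 in WT) and the flattest for Srebf1 (1703 in F4KO and 1346 in WT); Scd2 is left out because its reads could not be recovered.

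**Figure D3:**
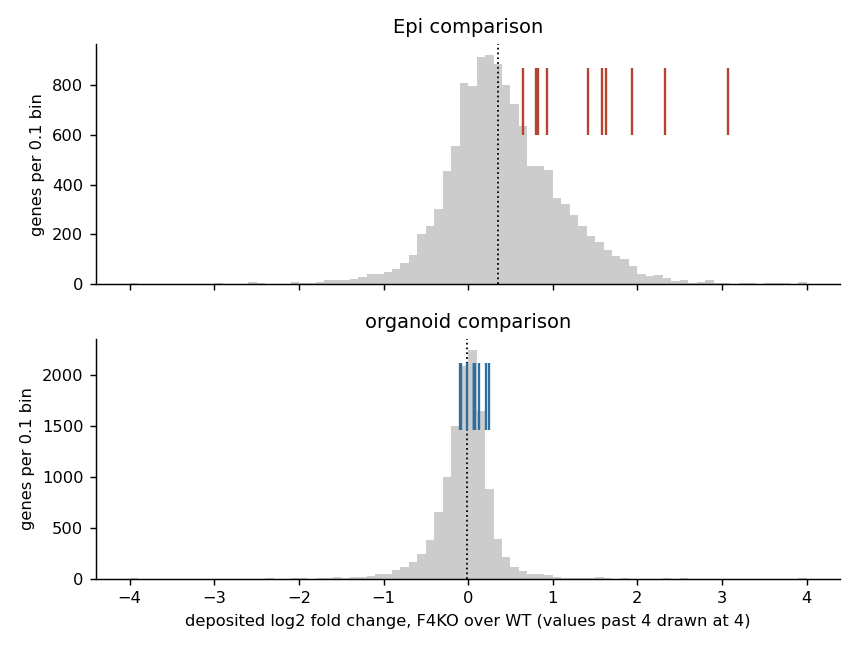
Number of tested genes (y axis) by deposited log2 fold change (x axis, F4KO over WT) in Epi (top) and in organoids (bottom). Coloured ticks mark the 10 members and the dotted line the median of all tested genes; the Epi histogram is wide and shifted to 0.35, with the members between 0.64 and 3.08, while the organoid histogram is narrow around -0.01, with the members between -0.10 and 0.24.

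The fold changes in Epi less those in organoids were 3.00 for Scd2, 2.19 for Fasn, 1.72 for Aacs, 1.55 for Fads2, 1.51 for Fads1, 1.35 for Acaca, 1.02 for Acly, 0.91 for Elovl6, 0.84 for Acss2 and 0.40 for Srebf1, on the log2 scale of the authors' deposited table. All 10 differences were above 0, and with 1 library per group they were not tested. Srebf1 differed least between the comparisons, having the lowest Epi fold and the highest organoid fold of the 10 genes.

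The read numbers themselves were larger in organoids than in Epi for most members. In WT, Fasn gave 3240 reads in organoids and 272 in Epi, Aacs 1243 and 222, and Acaca 773 and 250. Fads1 gave 4540 reads in F4KO and 4376 in WT in organoids, where Epi gave 167 in F4KO and 69 in WT. Elovl6 and Srebf1 had reads of the same order in both. The depths of organoid and Epi libraries relative to each other are not known, so no fold between them is given, and organoid read pairs are less certain than those of Epi.

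Other genes of the same pathway were counted by lists written with earlier results of these data known. Of 20 further elongation and desaturation genes, 14 were tested in Epi, with 5 higher and 1 lower by 1.5-fold and a median log2 fold change of 0.41; among all tested genes 35.1% were higher, a share close to 5 of 14. After the median of all tested genes was taken off, 3 were higher and 2 lower, against 20.3% higher and 1576 of 12406 tested genes lower. The desaturase-like gene Fads3 gave 57 F4KO reads against 27 WT reads. Hacd1, a dehydratase of the elongation cycle, had 316 in F4KO and 169 in WT, and Elovl5, an elongase of polyunsaturated fatty acids, 243 in F4KO and 141 in WT. Their F4KO over WT ratios were 2.60 (interval 1.62 to 4.27), 2.30 (1.90 to 2.79) and 2.12 (1.72 to 2.63). Cyb5r3, the cytochrome b5 reductase that passes electrons to desaturases, was the lower gene, at -0.93 (log2) by the authors' deposited table. In organoids 0 of 14 were higher and 1 lower, where 2.56% of tested genes were higher and 4.91% lower. The lower gene was Fads6, at -1.16 with an FDR of 0.28 by the authors' deposited table.

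Genes of carbon and NADPH supply and lipogenic cofactors had 4 higher and 1 lower by 1.5-fold of 14 tested in Epi. Among all tested genes 35.1% were higher and 4.69% lower. The list's median of 0.15 was below the median of all tested genes. With the median of all tested genes taken off, 2 were higher and 2 lower and the list's median was -0.20. By that measure 20.3% of tested genes were higher and 1576 of 12406 lower. Mid1ip1, an activator of acetyl-CoA carboxylase, gave 547 F4KO reads against 247 WT reads, for a ratio of 2.72 with an interval from 2.34 to 3.18. Acss1, the mitochondrial acetyl-CoA synthetase, had 829 reads in F4KO against 618 in WT (its ratio's interval ran from 1.49 to 1.83). Mecr and Mcat, enzymes of mitochondrial fatty acid synthesis, were at 1.18 and 0.86 (log2) by the authors' deposited table. Me1, the cytosolic malic enzyme that supplies NADPH, ran the other way with 210 reads in F4KO and 682 in WT, for a ratio of 0.379 with an interval from 0.323 to 0.443. In organoids 0 of 14 were higher by 1.5-fold and 1 was lower, where 2.56% of tested genes were higher and 4.91% lower. The lower gene was Acacb, the mitochondrial acetyl-CoA carboxylase, at -0.71 with an FDR of 0.168 by the authors' deposited table.

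Control genes of SREBP, LXR and ChREBP had a median of 0.17 in Epi, with 4 higher and 1 lower of 22 tested, where 35.1% of all tested genes were higher. Relative to the median of all tested genes the balance turned, with 1 higher and 5 lower and a median of -0.18. By that measure 20.3% of tested genes were higher and 1576 of 12406 lower. The higher ones were Srebf2, the SREBP of the sterol genes, at 0.95 by the authors' deposited table, Insig1, a sterol-sensing retention protein (1022 reads in F4KO and 658 in WT, interval of the ratio 1.73 to 2.11), the E-box factor Usf1 (557 in F4KO against 399 in WT, 1.51 to 1.96) and the AMPK subunit Prkaa2 (301 in F4KO against 230 in WT, 1.35 to 1.92). Mylip, an LXR target, was lower, with 147 reads in F4KO and 295 in WT and an interval from 0.500 to 0.750. In organoids Mylip was the single gene of 21 past 1.5-fold, at 1.81 with an FDR of 0.0554 by the authors' deposited table. Among all tested genes there 2.56% were higher and 4.91% lower.

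Cholesterol genes, the classic targets of SREBP-2, were higher in Epi as well. Of 23 tested, 15 were higher and 0 lower by 1.5-fold, with a median of 0.79. Among all tested genes 35.1% were higher and 4.69% lower. After taking off the median of all tested genes 8 were higher and 0 lower, where 20.3% of tested genes were higher. Mvd, an enzyme of the mevalonate pathway, gave 521 F4KO reads against 234 WT reads (interval of the ratio 2.34 to 3.21), Acat2, an acetoacetyl-CoA thiolase, gave 308 in F4KO against 140 in WT (2.21 to 3.33), and the lanosterol synthase gene Lss was at 1.70 by the authors' deposited table. Organoids showed 0 of 23 past 1.5-fold in either direction, with a median of -0.01, where 2.56% of tested genes were higher and 4.91% lower.

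Genes that activate fatty acids and build glycerolipids did not share this direction in Epi. Of 15 tested, 3 were higher and 1 lower by 1.5-fold, where 35.1% of all tested genes were higher and 4.69% lower. The list's median was -0.27, below that of all tested genes. Relative to the median of all tested genes, 2 were higher and 8 lower, against 20.3% higher and 1576 of 12406 tested genes lower. Lpin1, a phosphatidate phosphatase, gave 190 F4KO reads against 33 WT reads, for a ratio of 7.08 with an interval from 4.88 to 10.6. Gpam, the mitochondrial glycerol-phosphate acyltransferase, had 106 reads in F4KO against 36 in WT (its ratio's interval ran from 2.46 to 5.44). Acsl4, an acyl-CoA synthetase, was at 0.77 with an FDR of 0.0825 by the authors' deposited table. Lpin2, the relative of Lpin1, was lower with 1976 reads in F4KO and 3709 in WT, and an interval from 0.620 to 0.692. In organoids 0 of 16 passed, where 2.56% of tested genes were higher and 4.91% lower.

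**Figure D4:**
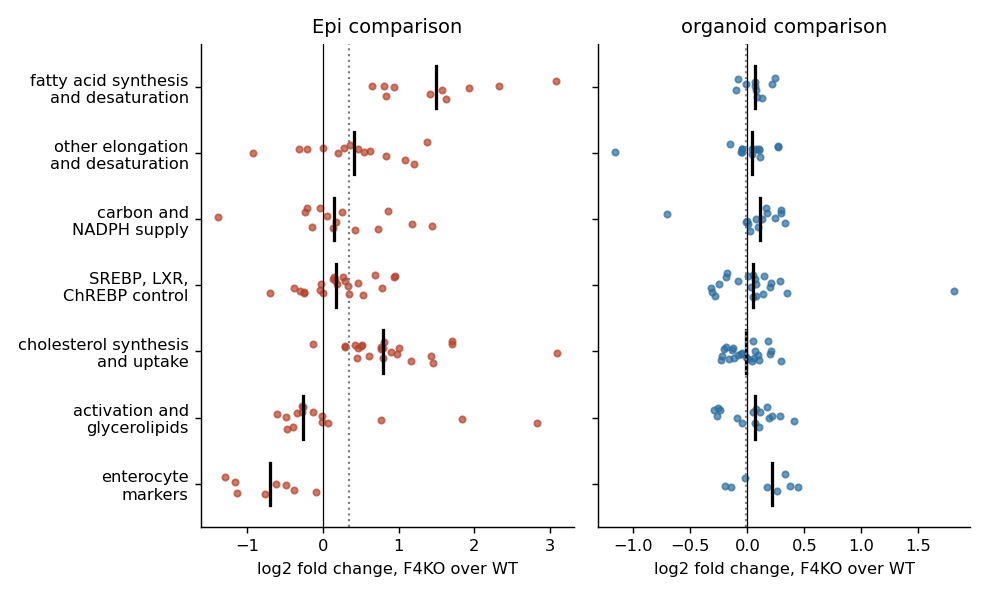
Deposited log2 fold change (x axes, F4KO over WT, drawn to different scales) of each tested gene of 7 lists in Epi (left) and organoids (right). Black bars are list medians and dotted lines the median of all tested genes; in Epi the members have a median of 1.50, cholesterol genes 0.79 and enterocyte markers -0.70, and in organoids the medians lie between -0.01 and 0.21.

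Markers of cell types also differed in Epi, some higher and some lower in F4KO, and their part in the members' result was not tested. All 8 enterocyte markers were below 0 in Epi, with a median of -0.70. Of these, 5 were lower by 1.5-fold (Alpi, Apoa4, Fabp1, Fabp2 and Lct), where 4.69% of tested genes were lower. Fabp1 was at -1.16 and Apoa4 at -1.30 by the authors' deposited table. In a list of 10 crypt and proliferation genes added after the Epi values of the members had been seen, 9 were higher by 1.5-fold. The list's median was 1.43. Among all tested genes 35.1% were higher by 1.5-fold. With the median of all tested genes taken off, 7 of the 10 were higher, where 20.3% of tested genes were. Olfm4, a crypt base marker, gave 2229 F4KO reads against 941 WT reads in Epi, and Mki67, a proliferation marker, 1242 in F4KO and 469 in WT. In organoids the crypt and proliferation list had a median of -0.33, beside a median of 0.21 for enterocyte markers. Of its genes 0 were higher and 2 lower by 1.5-fold (Ascl2 and Top2a), where 2.56% of tested genes were higher and 4.91% lower. Stromal markers were low but higher in F4KO in Epi: 6 fibroblast markers summed to 109 F4KO reads and 21 WT reads, and 4 smooth muscle markers to 162 in F4KO and 14 in WT, of which Acta2 gave 61 in F4KO and 3 in WT. In organoids these sums were 4 in F4KO and 1 in WT for fibroblasts, and 6 in F4KO and 5 in WT for smooth muscle. The 6 immune markers with recovered reads summed to 449 in F4KO and 544 in WT in Epi, unscaled and mostly from Cd8a (242 in F4KO and 359 in WT), while Lyz2 gave 51 in F4KO and 29 in WT, its ratio of 2.16 having an interval from 1.35 to 3.54, and 3 endothelial ones to 27 in F4KO and 38 in WT. Of 6 adipocyte markers, Adipoq, Plin1 and Lep had no fold change in either comparison, Cfd and Plin4 had 1 read each in F4KO and 0 in WT in Epi, and Cidec, which the intestine also expresses, had 863 in F4KO and 2698 in WT. Of 6 epithelial genes, Krt20 was lower by 1.5-fold in Epi, at -0.79, and the others lay within that limit, among them Epcam at -0.21 and Vil1 at -0.28 by the authors' deposited table. In these bulk libraries, a larger share of cells that express a gene and more RNA per cell cannot be told apart. The sexes are not given in the labels. In organoids the Y-linked gene Ddx3y gave 230 reads in F4KO and 1 in WT. Eif2s3y, also Y-linked, gave 879 in F4KO and 1 in WT there, and Uty 208 in F4KO and 30 in WT. In Epi Ddx3y gave 448 in F4KO and 374 in WT. A difference of sex between the organoid libraries therefore cannot be told apart from genotype, and was not tested.

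For Fasn and Acly every listed transcript was higher in Epi, as the gene was, but not for Acaca and Srebf1. The authors' deposited table of transcripts lists 2 for Fasn, at 1.48 and 2.50 on the log2 scale in Epi and 0.36 and 0.12 in organoids. Acly has 2 as well, and both were higher in Epi, at 1.04 (NM_134037.3) and 0.80 (NM_001199296.1), whereas in organoids they stood at -0.42 and 0.10 by the authors' deposited table. For Acaca, the main transcript NM_133360.2 was at 1.41 in Epi and 0.04 in organoids by the authors' deposited table, close to the gene, while XM_011248666.2 was at 3.00 in Epi and 1.17 in organoids and XM_006531957.4 at -1.58 in Epi. The 6 Srebf1 transcripts ran from -5.35 (NM_001313979.1) to 9.60 (NM_001358315.1) in Epi and from -2.81 (XM_006532716.3) to 2.81 (NM_011480.4) in organoids, by the authors' deposited table. The value of 9.60 is a ratio of 777 to 1 whole steps, so the WT level stood at the lowest step and the ratio is no measure of size. Transcripts of a gene share most of their sequence, so that the split of reads between them is uncertain.

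**Figure D5:**
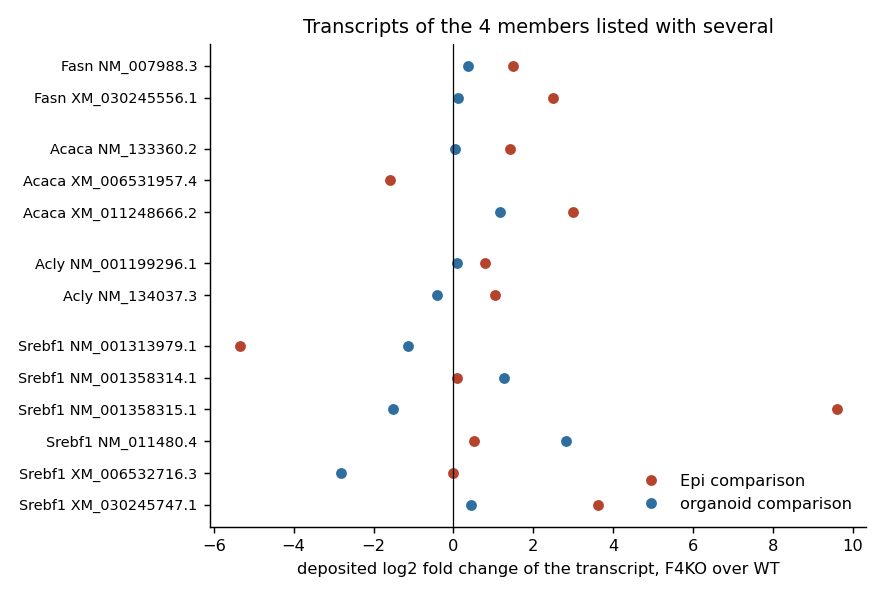
Deposited log2 fold change (x axis, F4KO over WT) of each listed transcript of Fasn, Acaca, Acly and Srebf1 in Epi (red) and organoids (blue). Fasn and Acly transcripts lie right of 0 in Epi, while Srebf1 transcripts spread from -5.35 to 9.60.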

How the data were processed

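Organoid RNA was sequenced after a SMARTER mRNA-seq kit, per the labels' protocols. The authors deposited tables of genes and transcripts with log2 fold changes and p-values, per the file headers from a test named after the Poisson distribution. Their deposited FDR was handled as a score in organoids, because 767 genes had a value above 1. The submitters' processing notes name GRCm38 and mm10; the aligner, the quantifier and the unit of the levels behind the folds were not given in the sources used here.

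Levels per library were assumed when the design was written; none were found, so the authors' fold changes took their place. The p-values fitted the two-sided Audic-Claverie test, and the ratio of library totals was taken from genes in which 1 library had 0 reads and refined on genes with small p-values (scipy 1.17.1, numpy 2.4.6). All read pairs were set against each p-value (relative tolerance 7e-06) and fold change (within 0.02 on the log2 scale; for genes with p under 1e-06 and no pair, within 0.4 and below 200 WT reads). A pair was printed where it alone fitted, or alone within 0.01. Of 130 list genes searched in Epi, 93 had 1 pair, and 1 had when p-values were moved by 0.03%, which leaves only false matches. In organoids it was 74 and 16 of 128, so organoid pairs are less certain. The moved search left out the wider window of 0.4 and stopped at fewer reads for the members. It counted only pairs that alone fitted, not those alone within 0.01, so it can understate false matches. The search was tested on simulated data.

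Members and lists were chosen with earlier results of these data known. Further lists name at most 5 tested genes past 1.5-fold in either comparison, by size; Acacb and the cell marker genes named were chosen after their values were seen. Some genes that this rule names are not reported here. Alternatives were other folds, the deposited FDR, no read filter, transcripts, read ratios, centring on the median and leaving out members.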

Additional observations from a re-analysis of the deposited data

Results flagged for a closer look

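Acly, Acss2 and Elovl6 were higher in F4KO in Epi and slightly lower in F4KO in organoids, opposite signs under the same contrast, which was not tested as a difference. Their log2 fold changes in Epi less those in organoids were 1.02 for Acly (0.94 and -0.08), 0.84 for Acss2 (0.83 and -0.01) and 0.91 for Elovl6 (0.81 and -0.10), in the authors' deposited table. The organoid values are small: with the median of all tested genes taken off, Acss2 was at 0.000486, above 0, and the interval of the Elovl6 read ratio there ran from 0.855 to 1.02.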

How the results depend on the processing

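With a fold of at least 2, 6 members in place of 10 passed in Epi, and with any fold at a deposited FDR of 0.001 or less, 2 in place of 0 passed in organoids. Without a read filter, 21.1% of genes passed 1.5-fold in organoids, against 7.47% with it. The members' Epi median of 1.50 was 1.15 less the median of all tested genes, 1.41 over transcripts and between 1.42 and 1.58 with each member left out; the organoid median of 0.07 was 0.0786 over transcripts and 0.0813 less the median of all tested genes. The other lists had 15 genes past 2-fold in Epi, against 35 past 1.5-fold. No member called at 1.5-fold changed sign. With the median of all tested genes taken off, the Epi medians of the supply and control lists turned from 0.15 to -0.20 and from 0.17 to -0.18, the glycerolipid calls were 2 higher and 8 lower in place of 3 and 1, and organoid Acss2, which was not called, went to 0.000486. Read ratios differed from deposited log2 fold changes by at most 0.00593 for 9 members in Epi and 0.0142 for 6 in organoids. By its transcript of smallest p-value, Srebf1 was at 9.60 in Epi and 2.81 in organoids, and in organoids Acaca was at 1.17, past 1.5-fold, and Acly at -0.42; the causes were not tested. A pseudocount was not tried, because no level per library was used. No paired analysis was possible because each group had 1 library. Low depth limits Fads1 in Epi and Fabp4 in both comparisons.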
